A study of Xenopus laevis with 16 samples.

Results

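The genes described here are the caudal-type homeobox genes cdx1, cdx2 and cdx4 and the even-skipped homologue evx1 of the frog Xenopus laevis. They were taken by name: a transcript belongs if its identifier has one of these base names and ends in .L or .S, the marks of the homeologous copies that the allotetraploid genome carries. This gave 8 transcripts of 43642 in all: cdx1.L, cdx1.S, cdx2.L, cdx2.S, cdx4.L, cdx4.S, evx1.L and evx1.S. The human protein that the files set beside cdx1.S is CDX2, whereas the other 7 carry the symbol of their own name. Polyadenylated RNA was sequenced from 16 libraries of embryos of the Nasco strain, all harvested at stage 12, a late gastrula. Of these, 14 came from animal caps, the ectoderm cut from the top of the blastula at stage 9, which on its own forms epidermis. The injected caps, 1 library each, had received mRNA at the 2-4 cell stage: BMP4 (200 pg), Chordin (400 pg), Wnt8 (16 pg), Cerberus (400 pg), FGF8 (200 pg), Xnr2 (200 pg), or Wnt8 (16 pg) together with Xnr2 (200 pg). The other libraries were 3 of caps dissociated into cells, 4 of intact uninjected control caps, and 1 each of the dorsal and the ventral side of embryos, cut apart along the middle at stage 10. Each treated cap library has a named control: control 1 for dissociated 1, BMP4 and Chordin, control 2 for dissociated 2, control 3 for dissociated 3, Wnt8 and Cerberus, and control 4 for FGF8, Xnr2 and Wnt8 plus Xnr2.

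Cdx proteins are homeodomain transcription factors of the ParaHox group that bind Hox genes and are needed for trunk and tail in vertebrates. They are known as targets of Wnt, FGF and retinoic acid signalling in the posterior of the gastrula, in mesoderm as well as in neural plate. Evx1, known in Xenopus as Xhox3, marks ventral and posterior mesoderm. BMP4 and Xnr2, a Nodal-type ligand, induce mesoderm in caps, whereas Chordin binds and blocks BMP, and Cerberus is a secreted antagonist of Nodal, BMP and Wnt.

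Values are RPKM, reads per kilobase of transcript, scaled by the library's mapped reads, so that levels of different genes can be set side by side. Depth recovered from the values ran from 25408438 to 46522450 mapped reads per library. An injected library has no replicate, and intervals given for it, always at 95%, cover counting error only. In bulk tissue, fewer cells of a type and less RNA per cell cannot be told apart. Epidermis markers summed to 694, 2572, 1610 and 5408 RPKM in controls 1 to 4. Control 1 stood apart, with the lowest of these sums and with neural plate markers at 451 RPKM, against 83.2 to 123 RPKM in controls 2 to 4. Markers of early mesoderm, a list of 15 transcripts, stayed between 2.80 and 9.27 RPKM in the controls, with control 3 the highest.

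Uninjected caps held little RNA of any of the 8 transcripts. In dissociated caps 1 to 3 cdx2.L stood at 0.199, 0.585 and 0.0352 RPKM, against 0.470, 0.790, 2.05 and 0.340 RPKM in controls 1 to 4. In the same order cdx4.S stood at 0.0539, 0.436 and 0.203 RPKM in dissociated caps, against 0.182, 0.136, 2.41 and 0.398 RPKM in controls. Control 3 was the highest library for both, and the groups overlapped. Its level of cdx4.L was 2.07 RPKM, against 0.0896 to 0.209 RPKM in the other controls, and cdx1.S, cdx2.S and evx1.L were also highest in control 3. The mean over all controls therefore moves with it: cdx4.L averaged 0.622 ± 0.966 RPKM (SD, n = 4), and 0.140 ± 0.0622 RPKM without control 3 (SD, n = 3). evx1.S was highest in control 2, and cdx1.L had its highest value in uninjected caps in dissociated 2, at 1.26 RPKM, where the matched control had no read. The plot of dissociated and control caps shows these values library by library.

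**Figure D1:**
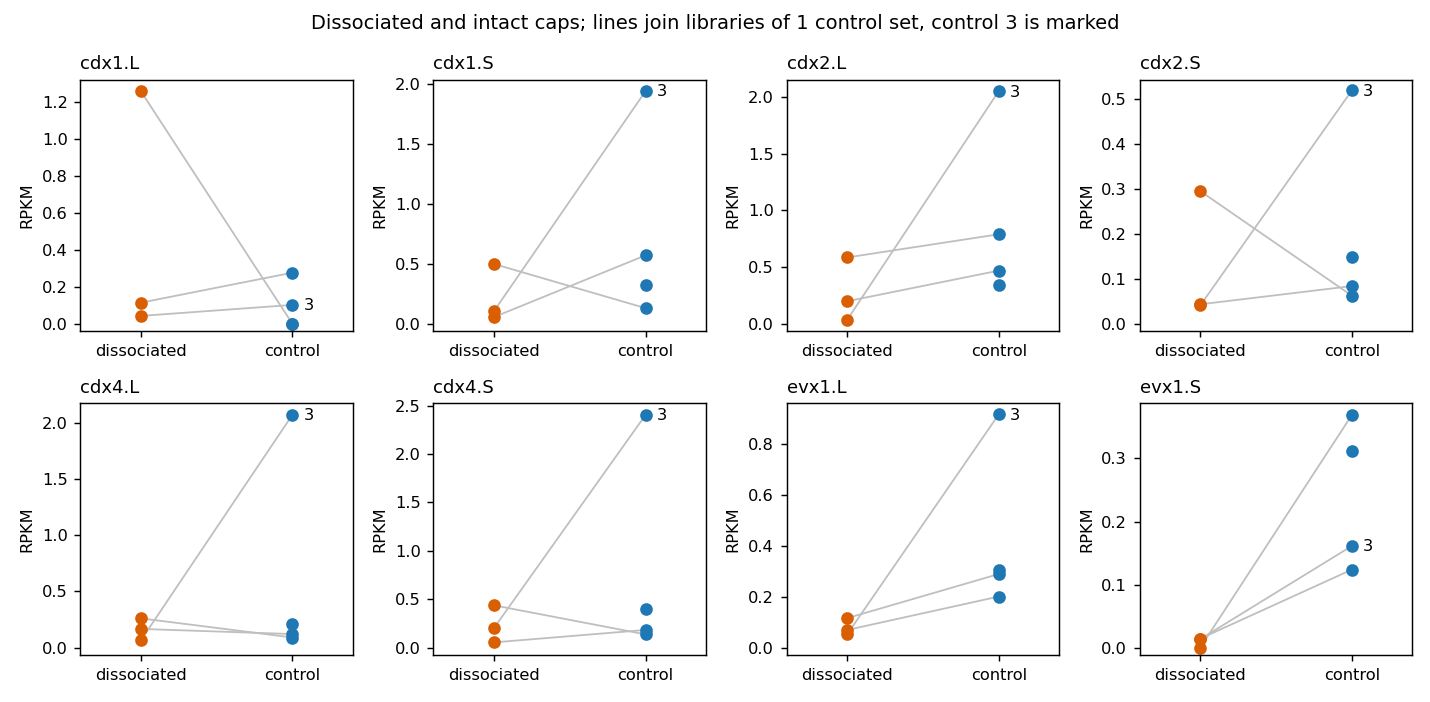
RPKM (vertical axes, linear, scaled per panel) of the 8 transcripts in 3 dissociated and 4 control cap libraries; each point is a library and lines join libraries of 1 control set. Control 3, marked, is the highest control for 6 of 8 transcripts, and the evx1 values of dissociated caps lie under those of all controls.

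evx1 was the gene whose groups did not overlap. evx1.L stood at 0.0690, 0.115 and 0.0520 RPKM in dissociated caps, against 0.2001, 0.288, 0.914 and 0.303 RPKM in controls 1 to 4. evx1.S stood at 0.0142, 0 and 0.0134 RPKM in dissociated caps, which is 1, 0 and 1 reads, against 0.124, 0.369, 0.161 and 0.312 RPKM in controls. Each dissociated library was thus under each control for both copies, so that 2 of 8 members were separated in the direction of lower in dissociated caps. Among 36169 transcripts with a read, 7.06% were separated in that direction against controls 1 to 3, and 4.57% in the other. No member averaged 1 RPKM over the 6 libraries, the minimum for the test, so 0 of 8 were tested, where 0.145% of all tested transcripts rose and 0.171% fell. With the minimum dropped, all 8 could be tested by limma and none was called at an adjusted p under 0.05, the threshold used throughout. That fit called 1 of 43641 transcripts higher and 0 lower. It had no term for the control set that pairs the libraries, and the fit with such a term tested 0 members. The log2 change of evx1.S was then -0.27 ± 0.08 (SE), with an unadjusted p of 0.0231 and a limma adjusted p of 0.633. That of evx1.L was -0.41 ± 0.19 with a limma adjusted p of 0.843. Epidermis markers summed to 29.9, 72.2 and 569.7 RPKM in dissociated caps 1 to 3, against 694, 2572 and 1610 RPKM in controls 1 to 3. Blood and vessel markers summed to 4.00, 3.56 and 66.9 RPKM in dissociated caps, against 195, 414 and 302 RPKM in the same controls. Neither list overlapped between the groups, and their part in the result was not tested.

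BMP4 mRNA raised cdx and evx1 transcripts well above every control. cdx2.L reached 63.7 RPKM in BMP4 caps, cdx4.S 49.6, cdx1.S 44.8 and cdx4.L 41.8 RPKM, whereas no control exceeded 2.41 RPKM for any of them. cdx2.S reached 7.78, evx1.L 6.28 and evx1.S 2.49 RPKM. cdx1.L is not listed for this pair of libraries, which means that it lay under 1.72 RPKM. On the log2(RPKM + 1) scale, which understates changes of low values, the increases over controls 1 to 4 ran from 1.498 ± 0.22 (SE) for evx1.S to 5.16 ± 0.46 for cdx2.L. All 7 listed members were called, with limma adjusted p-values from 0.00125 to 0.0254, and 0.417% of all tested transcripts rose and 0.0125% fell. Since a transcript this low in controls is tested only where the treatment raises it, that share of members cannot be read as a rate. With a pseudocount of 0.1 RPKM in place of 1 none of the 7 was called (limma adjusted p = 0.111 to 0.64). With a term for the control set (a block), the 5 cdx transcripts stayed called at limma adjusted p-values of 0.0231 to 0.0453, whereas evx1.L and evx1.S had 0.0762 and 0.154. evx1.S also missed the threshold without control 3 (limma adjusted p = 0.104) and without control 4 (0.0663). The early mesoderm markers summed to 746 RPKM in BMP4 caps over the 13 of 15 that are listed, and their part in the result was not tested.

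No member passed the test in caps with either antagonist, and most stood under the matched control. In Chordin caps cdx2.L stood at 0.131 RPKM, cdx4.L at 0.0926 and evx1.L at 0.0528 RPKM, and 7 of 8 members were under control 1. The exception was cdx1.L, at 0.605 RPKM in Chordin caps and 0.278 RPKM in control 1, a ratio of 2.18 with an interval of 1.33 to 3.65. Among the 7, the interval of the ratio included 1 for cdx2.S (0.109 to 4.39), cdx4.L (0.244 to 2.33) and evx1.S (0.0231 to 1.06). For the rest of the 7 it lay under 1. In Cerberus caps cdx2.S and evx1.S each rested on 1 read, and cdx2.L, cdx4.L and cdx4.S stood at 0.0528, 0.0418 and 0.0408 RPKM. Again 7 of 8 were under the matched control, here control 3, by 9.95-fold to 58.9-fold. cdx1.L was above it, at 0.348 RPKM in Cerberus caps and 0.103 RPKM in control 3. The share of all transcripts under the matched control is not given here, so neither count of 7 of 8 can be called unusual. Control 3 is also the library with the highest uninjected levels, and against all 4 controls the log2 changes of the 4 members tested were small, from -0.78 ± 0.45 (SE) for cdx2.L to -0.49 ± 0.52 for cdx4.L. None of these 4 was called (limma adjusted p = 1.0 each), where 0.00627% of tested transcripts fell in Cerberus caps. These 4 passed the minimum only through their level in control 3, so this count cannot be read as a rate. In Chordin caps no member reached the minimum for the test, and 0.0128% of tested transcripts rose and 0.0% fell. With the minimum dropped, 0 of 8 were called for either antagonist, by limma, and no unadjusted p was under 0.05. Those fits called few transcripts at all: 1 of 17924 higher and 0 lower in Chordin caps, 5 of 17947 higher and 0 lower in Cerberus caps. Early mesoderm markers summed to 2.74 RPKM in Chordin and 2.64 RPKM in Cerberus caps. Epidermis markers stood at 191.5 RPKM in Chordin caps and 694 RPKM in control 1, and at 251 RPKM in Cerberus caps and 1610 RPKM in control 3. Neural plate markers stood at 1262 RPKM in Chordin caps and 451 RPKM in control 1, and at 988 RPKM in Cerberus caps and 121 RPKM in control 3. The part of either in the result was not tested.

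Wnt8, at the smallest dose of mRNA, gave an uneven response. cdx4.S reached 17.1 RPKM in Wnt8 caps, cdx4.L 12.2, cdx2.L 8.08 and evx1.L 7.44 RPKM. By contrast cdx1.S stood at 1.67, cdx2.S at 0.752, cdx1.L at 0.351 and evx1.S at 0.340 RPKM. The first group lay above every control and above its own control 3 by 7.12-fold (interval 6.30 to 8.07), 5.90-fold (5.15 to 6.77), 3.94-fold (3.44 to 4.52) and 8.13-fold (6.66 to 10.0). cdx1.S lay under control 3, with 1.67 RPKM in Wnt8 caps and 1.94 RPKM in control 3, but the interval of the ratio (0.719 to 1.03) included 1. At lower levels cdx1.L was 3.41-fold above control 3 (1.87 to 6.58), evx1.S 2.11-fold (1.18 to 3.89) and cdx2.S 1.45-fold (0.940 to 2.24). Of these, evx1.S stayed within the range of controls 1 to 4, which was 0.124 to 0.369 RPKM. Only evx1.L rose by the test, by 2.59 ± 0.31 (SE) on the log2 scale with a limma adjusted p of 0.033, where 0.0758% of tested transcripts rose. evx1.L, at 0.914 RPKM in control 3, passed the minimum only through its level in Wnt8 caps. The changes of cdx4.S and cdx4.L were larger, 3.51 ± 0.56 and 3.18 ± 0.53, but with limma adjusted p-values of 0.133 and 0.150. The outcome changed with control 3: without it the fit called cdx4.S, cdx4.L and evx1.L, at limma adjusted p-values of 0.0111, 0.0111 and 0.018. The call of evx1.L was lost without control 2 (limma adjusted p = 0.0954), without control 4 (0.117), with the block (0.292) and with a pseudocount of 0.1 RPKM (0.992). Early mesoderm markers summed to 25.0 RPKM in Wnt8 caps, 12.9 RPKM of it from wnt8a.L, which may include injected mRNA, and their part in the result was not tested.

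FGF8 favoured cdx4. In FGF8 caps cdx4.L reached 51.8 RPKM and cdx4.S 29.5 RPKM, followed by cdx2.L at 17.0, cdx1.S at 9.16, cdx2.S at 6.12 and evx1.L at 3.27 RPKM. cdx1.L and evx1.S are not listed there, which places them under 2.0 and 1.69 RPKM. Every listed member was above all 4 controls, and cdx4.L was 248-fold above its own control 4 (interval 160 to 406). In BMP4 caps cdx4.L was 348-fold above its own control 1 (183 to 761), which rests on 9 reads in that control. There cdx4.S followed at 272-fold (162 to 497), so the cdx4 copies had the largest ratios with BMP4 too. The log2 changes were 5.18 ± 0.54 (SE) for cdx4.L, 4.26 ± 0.57 for cdx4.S, 3.31 ± 0.47 for cdx2.L and 2.58 ± 0.30 for cdx2.S, all called at limma adjusted p-values of 0.0116 to 0.0428, where 0.168% of tested transcripts rose. Members here passed the minimum only through their level in FGF8 caps, so the share called cannot be read as a rate. cdx1.S, with 2.65 ± 0.49, and evx1.L, with 1.61 ± 0.31, were not called (limma adjusted p = 0.160 and 0.171). These calls were close to the threshold: with the block none remained, at limma adjusted p-values of 0.205 to 0.318 for the 4, nor with a pseudocount of 0.1 RPKM (0.444 to 0.787), and without control 2 only cdx4.L was called (0.0413). Of the 6 members listed in both, cdx4.L was the one higher with FGF8 than with BMP4, at 51.8 RPKM in FGF8 caps and 41.8 RPKM in BMP4 caps. Of the early mesoderm markers 6 of 15 are listed in FGF8 caps, with a sum of 101 RPKM, and their part in the result was not tested.

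Xnr2 gave the highest levels of the caps for every member. cdx1.S reached 316 RPKM in Xnr2 caps, cdx2.S 257, cdx4.L 218, cdx4.S 216 and cdx2.L 209 RPKM. evx1.L reached 22.4, cdx1.L 6.69 and evx1.S 5.90 RPKM. All 8 rose over controls 1 to 4, by 2.48 ± 0.18 (SE) on the log2 scale for evx1.S up to 7.76 ± 0.29 for cdx2.S, with limma adjusted p-values of 1.96e-06 to 0.00324, and 3.69% of tested transcripts rose. Against control 4 alone cdx2.S was 1736-fold higher, which rests on 9 reads in that control and has an interval of 914 to 3797. With Wnt8 added the levels were 151 RPKM for cdx1.S, 85.1 for cdx2.S, 84.4 for cdx4.S, 82.0 for cdx4.L, 62.8 for cdx2.L, 6.66 for evx1.L and 2.66 for cdx1.L, while evx1.S is not listed and so lay under 1.69 RPKM. Each of the 7 listed was above all controls and was called, with log2 changes of 1.75 ± 0.39 (cdx1.L) to 6.55 ± 0.49 (cdx1.S), and limma adjusted p-values of 3.12e-06 to 0.048, with 3.5% of tested transcripts raised and 0.24% lowered. cdx1.L, at 0.048, lost its call with the block (0.173) and without control 2, 3 or 4 (0.101, 0.112 and 0.0974). All these tests share the same control libraries. Members this low in control 4 passed the minimum only through their level in the injected caps, so the 8 and 7 called cannot be read as rates. Early mesoderm markers summed to 2372 RPKM over 13 listed transcripts in Xnr2 caps and 2456 RPKM over 15 in the double injection. Of 13 muscle markers 9 are listed in both, with sums of 984 RPKM in Xnr2 caps and 1127 RPKM in the double injection, against 178 RPKM over 9 in control 4. Of 21 endoderm markers 7 are listed in Xnr2 caps, with a sum of 201 RPKM, and 9 in the double injection, with 351 RPKM, against 55.2 RPKM over 9 in control 4. The part of these cell types in the result was not tested.

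**Figure D2:**
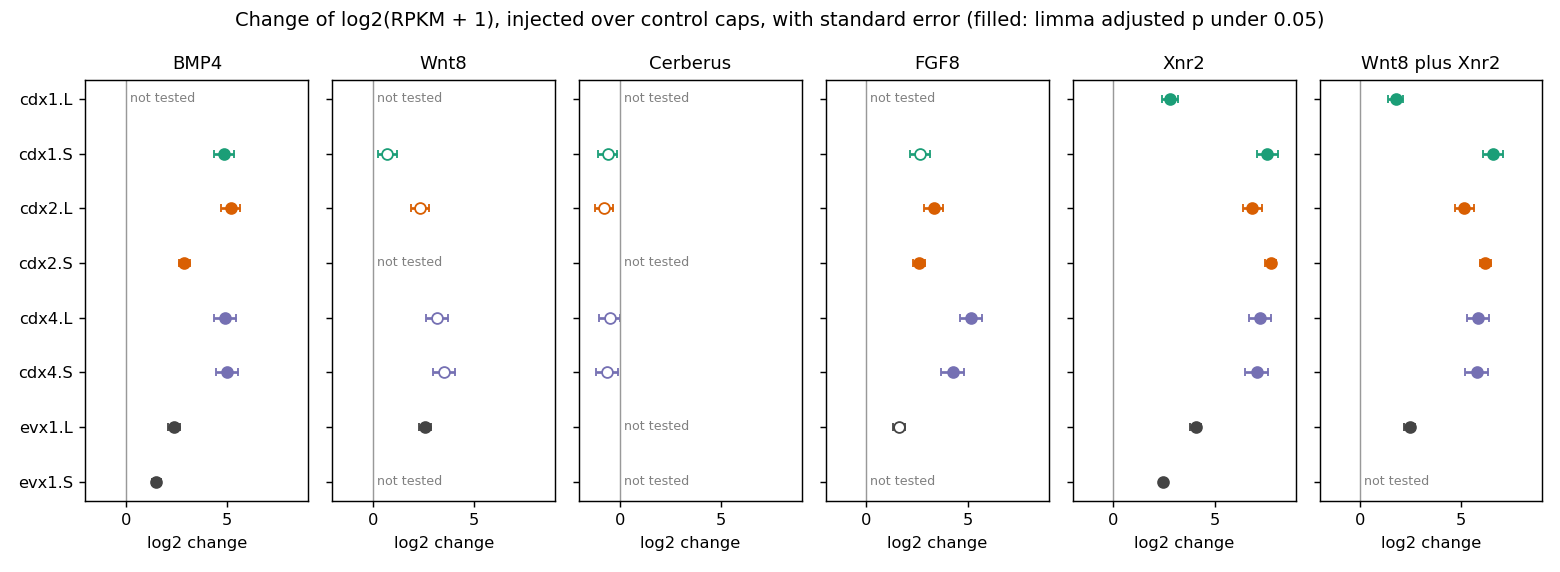
Change of log2(RPKM + 1) of each member over control caps 1 to 4 with its standard error; filled points have a limma adjusted p under 0.05, and members without a point were not listed or under the minimum. Xnr2 moved the cdx transcripts other than cdx1.L by 6.86 to 7.76, and no member passed the test in Cerberus caps.

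Adding 16 pg of Wnt8 mRNA to Xnr2 lowered every listed member, in a comparison of 1 library with 1. cdx2.L stood at 62.8 RPKM in Wnt8 plus Xnr2 caps and 209 RPKM in Xnr2 caps, a ratio of 0.300 (interval 0.291 to 0.309). evx1.L had a ratio of 0.297 (0.270 to 0.327), cdx2.S 0.330, cdx4.L 0.377, cdx4.S 0.390, cdx1.L 0.398 and cdx1.S 0.477 (0.468 to 0.486). The 7 thus kept 29.7% to 47.7% of their Xnr2 level, and cdx1.S lost least. evx1.S, at 5.90 RPKM in Xnr2 caps and under 1.69 RPKM in the double injection, kept less than each of the 7. It has no exact ratio and is left out of this range and of the counts that follow. On the log2(RPKM + 1) scale, among transcripts reaching 5 RPKM in either library, 0 of 7 passed 4-fold, where 0.147% of all transcripts were lower by that much, and 7 of 7 passed 2-fold, where 1.48% were and 3.02% were higher by as much. Other genes of the posterior mesoderm did not share one ratio. The T-box gene t.S, the frog brachyury, stood at 534 RPKM in the double injection and 538 RPKM in Xnr2 caps. The paraxial mesoderm regulator msgn1.L stood at 73.0 and 163 RPKM in the same order, and sp5.L, a target of Wnt signalling, at 3.34 and 26.9 RPKM. Between these libraries anterior genes stood at 95.7 RPKM in the double injection and 10.3 RPKM in Xnr2 caps, over 6 of 18 transcripts listed, and epidermis markers at 389.7 and 736 RPKM in the same order, over 12 of 14. Their part in the result was not tested. No replicate exists for either library, so the spread behind these ratios is unknown.

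In the embryo the genes were higher on the ventral side, again 1 library against 1. cdx1.S stood at 78.6 RPKM on the dorsal side and 240.1 RPKM on the ventral side, cdx4.L at 72.0 and 214, and cdx2.L at 58.7 and 190.0 RPKM in the same order. cdx4.S stood at 70.9 and 183, cdx2.S at 49.4 and 143, evx1.L at 8.26 and 25.8, evx1.S at 2.91 and 12.4, and cdx1.L at 2.45 and 8.84 RPKM. All 8 were lower dorsally, by 2.59-fold for cdx4.S (interval 2.50 to 2.67) to 4.25-fold for evx1.S (3.64 to 4.99). On the log2(RPKM + 1) scale 0 of 8 passed 4-fold, where 0.455% of transcripts were lower dorsally by that much and 0.75% higher. At 2-fold 8 of 8 passed, where 2.83% of transcripts were lower and 2.13% higher. Their median log2 ratio was -1.55, against -0.00372 over all transcripts compared. Early mesoderm markers summed to 833 RPKM dorsally and 1558 RPKM ventrally, and epidermis markers to 346 and 844 RPKM, so both moved the same way. So did blood and vessel markers, with 122 RPKM dorsally and 245 RPKM ventrally over 4 of 17 listed. Muscle and endoderm markers went the other way, with 322 and 791 RPKM dorsally and 197 and 677 RPKM ventrally. Neural plate markers, with 603 RPKM dorsally and 384 RPKM ventrally, and anterior genes, with 211 RPKM dorsally and 12.95 RPKM ventrally over 8 of 18 listed, were also higher dorsally. The part of these cell types in the result was not tested. Xnr2 caps came near the ventral side for the main members: cdx4.L had 218 RPKM in Xnr2 caps and 214 RPKM on the ventral side, a ratio of 1.02 with an interval of 0.996 to 1.04. The ratio was highest for cdx2.S, at 1.81 (1.75 to 1.86), and lowest for evx1.S, at 0.478 (0.424 to 0.537).

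**Figure D3:**
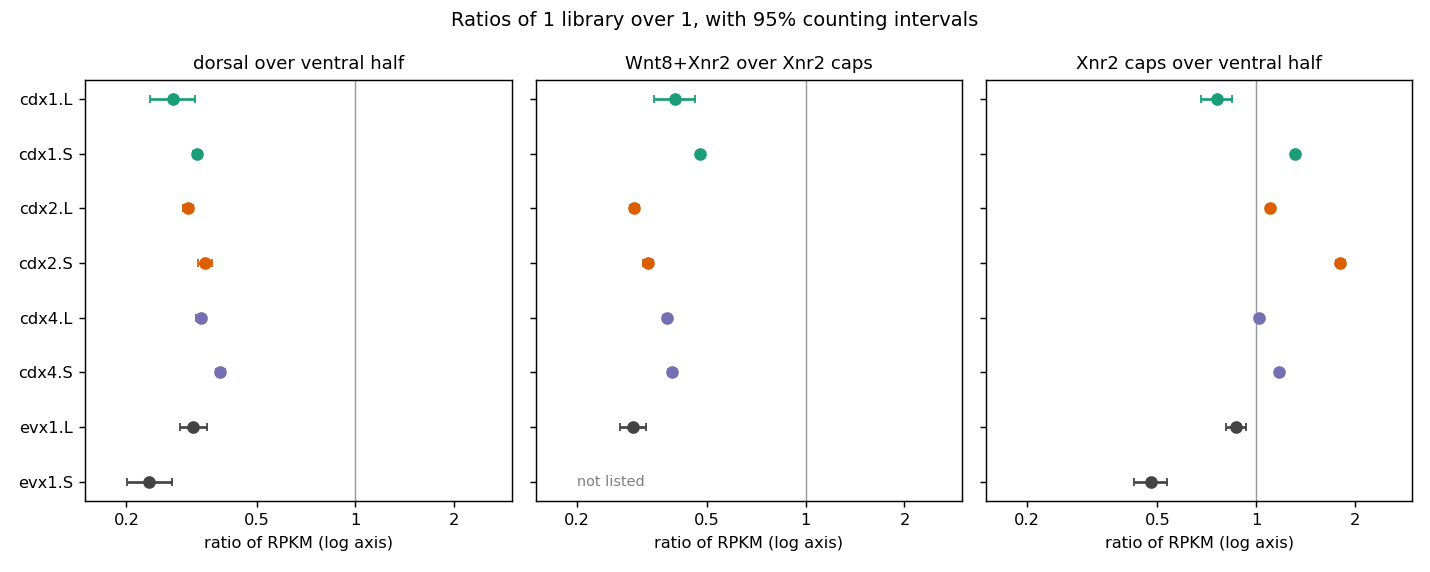
Ratio of RPKM between pairs of single libraries (log axis) with 95% counting intervals for each member. All points of the dorsal over ventral panel lie between 0.235 and 0.387. Those of Wnt8 plus Xnr2 over Xnr2, where evx1.S has no point, lie between 0.297 and 0.477. Those of Xnr2 caps over the ventral side lie on both sides of 1.

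The ratio of the homeologous copies differed between libraries. Among the induced caps and embryo sides that list both copies it ranged most widely for cdx2. For cdx1 that leaves out BMP4 and FGF8 caps, and for evx1 FGF8 and Wnt8 plus Xnr2 caps, so their full range is not known. The L copy of cdx2 held 89.1% of the gene's RPKM in BMP4 caps, 91.5% in Wnt8 caps and 73.5% in FGF8 caps. It held 44.8% in Xnr2 caps, 42.5% in Wnt8 plus Xnr2 caps, 54.3% on the dorsal side and 57.1% on the ventral side. Controls 1 to 4 gave 84.8%, 92.6%, 79.8% and 69.6%, from sums of at most 2.57 RPKM. As a ratio, L stood over S at 8.20 in BMP4 caps (interval 7.44 to 9.05) and 0.813 in Xnr2 caps (0.795 to 0.832). In RPKM, cdx2.S was 33.1-fold higher in Xnr2 than in BMP4 caps, whereas the other listed members were 2.37-fold to 7.06-fold higher. Of 1991 gene pairs with at least 5 RPKM in the higher copy of both libraries, 1.66% shifted by 4-fold or more toward L in BMP4 over Xnr2 caps on the log2(RPKM + 1) scale, and 2.06% toward S. cdx2 was among those toward L, with 3.18 on the log2 scale, whereas cdx4 and evx1 had -0.25 and -0.70. FGF8 lay between: the shift of cdx2 was 1.64 for FGF8 over Xnr2 caps and 1.54 for BMP4 over FGF8 caps, neither past 4-fold, where 0.341% and 0.777% of pairs shifted that far toward L and 0.383% and 1.12% toward S. This measure was chosen after the values were seen, and how reads were divided between similar copies is not given in the sources used here.

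**Figure D4:**
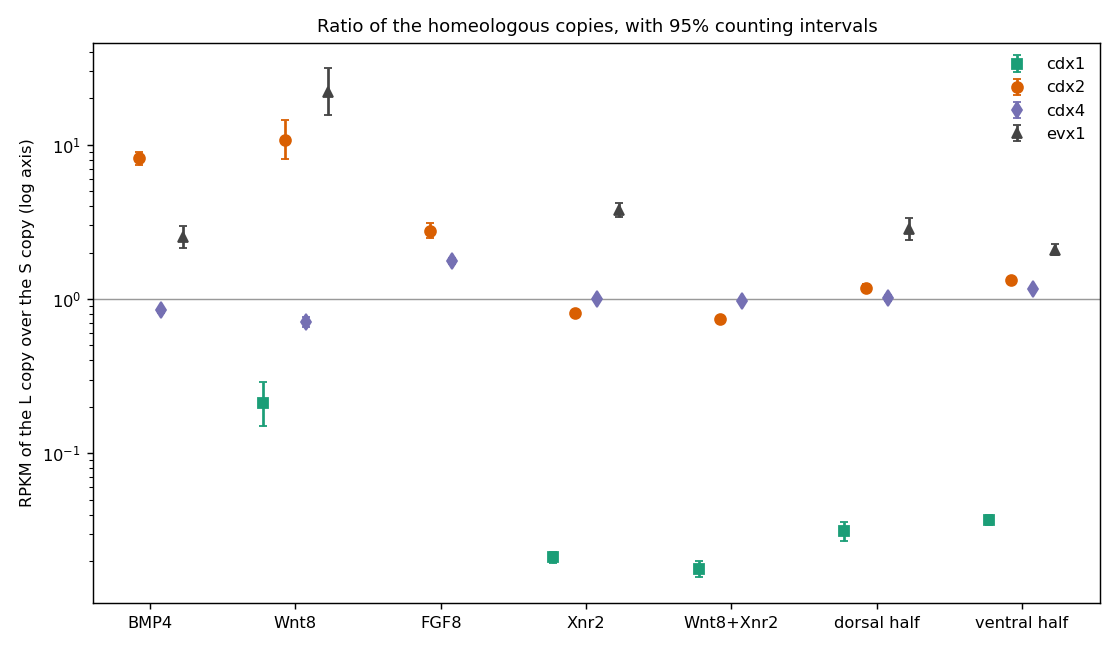
RPKM of the L copy over the S copy (log axis) of each gene in 5 injected cap libraries and the embryo sides, with 95% counting intervals; combinations with an unlisted copy have no point. cdx4 stays between 0.712 and 1.76, cdx2 runs from 0.739 to 10.7, and the S copy of cdx1 exceeds the L copy throughout.

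cdx4 was the most even pair, with an L over S ratio of 1.01 (interval 0.987 to 1.03) in Xnr2 caps, 0.843 in BMP4 caps, 0.712 in Wnt8 caps and 1.76 in FGF8 caps. cdx1 was the least even, since cdx1.S was 47.2-fold above cdx1.L in Xnr2 caps, 56.6-fold in the double injection, 32.1-fold on the dorsal side and 27.2-fold on the ventral side. At levels under 2 RPKM for the pair the order was turned in some libraries: cdx1.L was 6.95-fold above cdx1.S in Chordin caps (interval 3.29 to 16.9), 4.21-fold in Cerberus caps (2.21 to 8.69) and 2.53-fold in dissociated 2 (1.75 to 3.71). In dissociated 1, with 10 and 5 reads, the ratio of 2.02 had an interval that included 1 (0.630 to 7.54). evx1 leaned to L in each library with more than 5 RPKM for the pair, from 2.089 on the ventral side and 2.52 in BMP4 caps to 3.80 in Xnr2 caps and 21.9 in Wnt8 caps (15.7 to 31.4), the last resting on 36 reads of evx1.S.

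**Figure D5:**
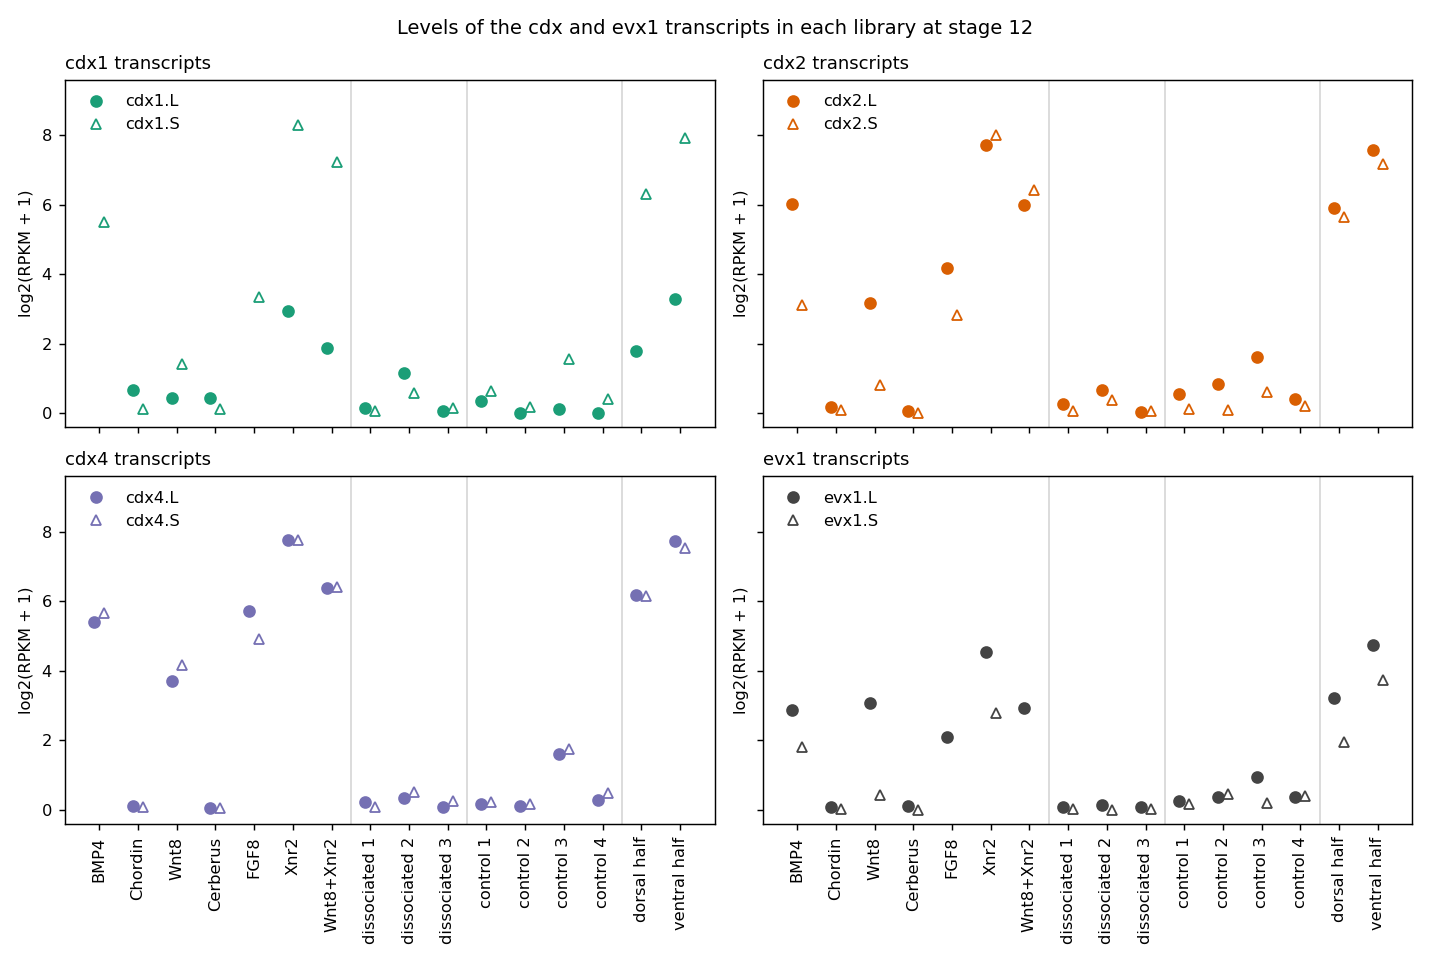
Level of each transcript, as log2(RPKM + 1), in 16 libraries; filled circles are L copies and open triangles S copies, and transcripts that a library's file does not list have no point. Xnr2 caps and the ventral side are the highest libraries for all 4 genes, and Chordin, Cerberus and uninjected caps lie near 0.

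The order of the libraries was similar for most members, as the plot of all libraries shows. Xnr2 caps and the ventral side held the first and second place for all 8. Next came the double injection for cdx1 and cdx4 transcripts and cdx2.S, BMP4 caps for cdx2.L, and the dorsal side for both evx1 copies. cdx2.L had 63.7 RPKM in BMP4 caps and 62.8 RPKM in Wnt8 plus Xnr2 caps, neighbours whose counting intervals overlapped. Intervals also overlapped for cdx1.L, at 2.66 RPKM in the double injection and 2.45 RPKM on the dorsal side. The same held for evx1.L (dorsal side 8.26, Wnt8 caps 7.44 RPKM) and evx1.S (dorsal side 2.91, BMP4 caps 2.49 RPKM). BMP4 gave higher levels than Wnt8 for 6 of 7 members, by up to 26.8-fold for cdx1.S. evx1.L was the exception, with a ratio of 0.845 (interval 0.757 to 0.942) for BMP4 over Wnt8 caps. Across libraries that list both, log2 levels of any pair of members had a Pearson r of 0.862 to 0.996, over 13 to 16 libraries, with cdx4.L and cdx4.S at the top. These libraries share controls and a split into induced and silent caps, so r describes these samples only.

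The transcripts with the highest r to each member were taken from those listed in at least 10 libraries. An r over fewer than 16 libraries leaves out those where either transcript is unlisted, which can be injected caps. For cdx1.S the first were wnt8a.S, which encodes a Wnt ligand, and t.S, both with r = 0.991 over 16 libraries. mespb.L and msgn1.L each had 0.991 over 14, which leaves out BMP4 and FGF8 caps, where neither is listed. cdx1.S had 44.8 and 9.16 RPKM in these 2 libraries. mespb.S and msgn1.L led for cdx2.S (0.997 over 15 and 14 libraries), with a transcript of human symbol ALPL at 0.997 over 12. For cdx2.L the first was kremen2.S, whose product is a receptor for the Wnt antagonist Dkk (0.992 over 15). An unnamed transcript followed, then one with the human symbol NRP2, whose r rests on 10 libraries without BMP4, Wnt8, FGF8 or Xnr2 caps. wnt8a.L was first for cdx4.S and, behind an unnamed transcript, second for cdx4.L (0.989 over 16 in both). For evx1.L named genes near it were sp5.S (0.981 over 14) and kremen2.S (0.981 over 15). For cdx1.L the first was rtkn.S (0.948 over 14) and for evx1.S a numbered transcript with the human symbol CASR (0.989 over 13). These members had the lowest maxima of the 8, at 8.84 and 12.4 RPKM on the ventral side.

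Signals known to act on cdx genes were measured as a list of 20 transcripts of Wnt, FGF and BMP ligands and the Wnt effectors lef1 and tcf7. In BMP4 caps 12 were tested and 9 rose, where 0.417% of all tested transcripts rose. In Wnt8 caps 1 of 9 rose (0.0758% of all tested), and in FGF8 caps 4 of 9 (0.168%). In Xnr2 caps (3.69%) and the double injection (3.5%) it was 10 of 14 each. No transcript of the list fell, and none of the 5 tested was called in dissociated, Chordin or Cerberus caps. The median log2 change of the tested transcripts was 3.16 with BMP4 and 3.96 with Xnr2, against 0.16 and -0.14 over all tested transcripts, and the minimum level selects for raised genes here too. wnt8a.L rose in each of the 5 injections that raised members: to 58.5 RPKM with BMP4, 12.9 with Wnt8, 37.0 with FGF8, 101 with Xnr2 and 77.0 with both, against 0.245 ± 0.156 RPKM in controls (SD, n = 4). Where Wnt8 mRNA was injected, the value of wnt8a.L may include it, and in Wnt8 caps it was the one called transcript of the list. The limma adjusted p-values were 0.000105, 0.0121, 0.00141, 4.81e-06 and 6.21e-06 in that order. fgf8.S stood at 57.4 RPKM in Xnr2 caps and 0.512 ± 0.224 RPKM in controls (SD, n = 4), with a limma adjusted p of 2.64e-05. The values of bmp4.S and fgf8.L may include injected mRNA, at 1762 RPKM in BMP4 caps and 170.2 RPKM in FGF8 caps. wnt8a.L is also one of the early mesoderm markers, and the part of these signals in the levels of the members was not tested.

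Hox genes, which Cdx proteins are known to bind, were measured as 86 transcripts, most of them under the minimum in every comparison. In Xnr2 caps 25 passed the minimum and all 25 rose, in the double injection 21 of 21, in BMP4 caps 4 of 7, in Wnt8 caps 3 of 4 and in FGF8 caps 3 of 3. Over all tested transcripts the share that rose was 3.69%, 3.5%, 0.417%, 0.0758% and 0.168% in that order of injections. A Hox transcript this low in controls passes the minimum mainly where the treatment raises it, so these counts cannot be read as rates. hoxd1.S stood at 4.61 RPKM with BMP4, 10.98 with Wnt8, 13.1 with FGF8 and 115 with Xnr2, against 0.177 ± 0.177 RPKM in controls (SD, n = 4). The limma adjusted p-values of hoxd1.S were 0.0452, 0.033, 0.0131 and 1.12e-05 in the same order of injections. Other Hox genes were raised in Xnr2 caps, with hoxb4.S at 25.6 and hoxb6.S at 19.97 RPKM, and stood lower in the double injection, at 7.08 and 11.8 RPKM. hoxd1.S likewise had 36.4 RPKM in the double injection and 115 RPKM in Xnr2 caps.

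Posterior and paraxial mesoderm partners were 42 transcripts, of which some (t, tbx6, eomes) are also among the early mesoderm markers. In Xnr2 caps 27 of 32 tested rose, and in the double injection 21 of 28. The counts were 7 of 21 in BMP4 caps, 3 of 17 in FGF8 caps and 1 of 17 in Wnt8 caps. The same shares over all tested transcripts apply, and the minimum again favours transcripts that the treatment raised. t.S stood at 104 RPKM in BMP4 caps and 12.4 RPKM in FGF8 caps, both called by limma (adjusted p = 3.11e-05 and 0.00501). In Wnt8 caps t.S stood at 1.04 RPKM, against controls of 0.0950 to 0.545 RPKM, while cdx4.S had 17.1 RPKM there. msgn1.L stood at 0.0462 RPKM in Wnt8 caps, within the controls. Of 18 anterior transcripts 7, 6 and 6 were tested in Wnt8, FGF8 and Wnt8 plus Xnr2 caps, and none was called. Over all tested transcripts 0.0%, 0.0% and 0.24% fell in these injections, in the same order. In BMP4 caps 2 of 7 tested fell, where 0.0125% of all tested transcripts fell. In Xnr2 caps 2 of 6 fell, where 0.447% of all tested transcripts fell. One of these, crx.L, whose human symbol in the files is OTX2, fell to 1.05 RPKM in BMP4 caps and 5.37 RPKM in Xnr2 caps, against 28.1 ± 8.85 RPKM in controls (SD, n = 4), with limma adjusted p-values of 0.00272 and 0.0146.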

How the data were processed

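Libraries were made from polyadenylated RNA with the Illumina TruSeq kit and read as single 100-base reads, per the labels' protocols. The authors deposited RPKM for transcripts of the JGI9.1 models, per the file headers; TopHat2 2.09 and DESeq are named in the submitters' processing notes, but the role of each is not given in the sources used here. The deposited tables that pair a treated library with its control hold only transcripts averaging at least 1 RPKM, and an unlisted transcript has no value there. A further deposited table sets Chordin, Wnt8 and Cerberus caps beside dissociated 2 and control 2. Of its 17318 rows, 1956 average under 1 RPKM. Values of members under the minimum in these caps come from it, and the fits with the minimum dropped for these caps include its transcripts. Deposited fold changes and p-values were not used. No sample column was left unmapped.

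Whole reads were recovered from the RPKM: each of 2000 transcripts drawn gave whole numbers to within 0.01 reads for a single length. They served for exact Poisson and binomial intervals. Tests were run in R 4.3.3 by limma 3.58.1, with its trend option, on values transformed as log2(RPKM + 1). Adjusted p-values follow Benjamini and Hochberg and cover every transcript tested in the comparison, after a minimum mean of 1 RPKM (over 6 libraries for dissociation, over the treated library and its control for an injection). Dissociation was tested with 3 libraries a side; for an injection, controls 1 to 4 were the reference and the spread was that of control and dissociated libraries, so that the lone library is assumed to vary like them. Fits with control 4's treated libraries left out 891, 945 and 958 transcripts (FGF8, Xnr2 and Wnt8 plus Xnr2) without a read in the full table. The fit was checked on simulated data. The labels pair each treated library with a control, and deviations of same-numbered control and dissociated libraries correlated at 0.584, 0.391 and 0.628. No label ties replicates to different clutches; the spread behind the p-values is that among these libraries and may be technical. Pairs of single libraries were compared by ratio, at 4-fold and at least 5 RPKM in the higher.

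The members and the 11 gene lists were chosen with earlier results of these data known. Named genes are every member, the 4 list transcripts with the largest called change in a comparison, the 5 nearest by Pearson r, and others named here for comparison after their values were seen. One gene among these is not reported here. A planned comparison of promoter and protein sequences was not run.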

Additional observations from a re-analysis of the deposited data

Results flagged for a closer look

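Among the 4 control libraries, control 3 lay far from the others for 3 of the 8 transcripts: the gap to the next control exceeded 0.829 of the group's range. These were cdx4.L at 2.07 RPKM, cdx4.S at 2.41 RPKM and evx1.L at 0.914 RPKM. Chance gives such a flag in about 1 of 20 groups, and the 8 transcripts come from the same 4 libraries. Control 3 had the highest sum of early mesoderm markers of the controls, 9.27 RPKM against 2.80 to 5.43 RPKM in the others, and their part in the result was not tested.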

How the results depend on the processing

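Of the values of single members under other settings, 309 kept their direction and their side of the threshold, 46 fell below it, 8 came past it and 0 changed sign. With a pseudocount of 0.1 RPKM the number of members called was 0 for BMP4, Wnt8 and FGF8; with 5 RPKM it was 4 for Wnt8. With the control set as replicate block it was 0 for Wnt8, 0 for FGF8, 5 for BMP4, 8 for Xnr2 and 6 for Wnt8 plus Xnr2. With the spread taken from the controls and the treated library alone it was 0 for Wnt8 and 0 for FGF8. With no minimum level it was 0 for Wnt8; BMP4, FGF8, Xnr2 and the double injection have no such value, since their tables are already filtered. Leaving out each control in turn gave 0 to 3 for Wnt8, 1 to 5 for FGF8, 6 to 7 for BMP4, 8 to 8 for Xnr2 and 6 to 7 for Wnt8 plus Xnr2. With transcripts lacking reads in the full table kept, an alternative chosen after seeing the data, FGF8 had 1. Between the embryo's sides 1 member passed 4-fold with a pseudocount of 0.1 RPKM. At 2-fold, also chosen after seeing the data, 8 were lower dorsally and 7 were lower with Wnt8 added to Xnr2. The cause of these shifts was not tested. Dissociation, Chordin and Cerberus had 0 members called in every alternative run. For dissociation and Chordin this was fixed beforehand except with no minimum level, since every other run tested 0 members. Levels under 1 RPKM rest on few reads.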

Other observations

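Neighbouring genes were looked up by name in the RefSeq annotation of assembly Xenopus_laevis_v10.1, which is not the build of the files. On both chromosome copies cdx2 lies beside pdx1 and gsx1, the other ParaHox genes, and evx1 lies between hoxa13 and hibadh, a metabolic gene. pdx1.L and pdx1.S had at most 0.0139 and 0.0169 RPKM in uninjected caps and are not listed for any injection. hoxa13.L and hoxa13.S had at most 0.0548 and 0.0505 RPKM there and are not listed for any injection either. hibadh.L had 57.1 RPKM in Xnr2 caps and 62.8 RPKM in control 4, where evx1.L had 22.4 and 0.303 RPKM.

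The ParaHox transcript gsx1.L stood higher in dissociated caps, at 0.621, 8.77 and 0.640 RPKM in dissociated 1 to 3, against 0.114, 0.0852 and 0.0529 RPKM in controls 1 to 3. The groups did not overlap, as for 4.57% of transcripts with a read in this direction, and limma did not call it. Its S copy overlapped between the groups. At far lower levels gsx2.L, another ParaHox transcript, was also higher, at 0.0308, 0.161 and 0.0871 RPKM in dissociated 1 to 3. It stood at 0 RPKM in each of controls 1 to 3. Neural plate markers summed to 1580, 1335 and 725 RPKM in dissociated 1 to 3, against 451, 83.2 and 121 RPKM in controls 1 to 3, and their part in the result was not tested.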
